A study of Rattus norvegicus with 2 samples.

Results

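Titin, the myomesins of the M-band, the MuRF ubiquitin ligases and cardiac myosin binding protein C were examined in cultured neonatal rat ventricular myocytes, the beating heart muscle cells of newborn rats. The genes were taken by symbol from the array's probe annotation. All 9 listed symbols (Ttn, Myom1, Myom2, Myom3, Obsl1, Trim63, Trim54, Trim55 and Mybpc3) had exactly 1 probe set each. The same held for all 16592 named genes. Cells from pups of 1 to 2 days were given a single adenovirus carrying a short hairpin RNA (shRNA) against Mef2d, which encodes a MEF2 family transcription factor of muscle, or against lacZ, a bacterial gene that serves as the negative control. Both cultures recovered first in medium with serum and were then kept in low-serum medium before the virus, and total RNA was taken 3 days after transduction. Each condition was measured on 1 Affymetrix array. The series' design text describes each array as a pool of 6 biological replicates, whereas the extraction protocol speaks of 3 replicates per condition and of myotubes. With 1 array per condition no difference has a replicate check, an error or a p-value, and each value below describes these 2 arrays.

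The M-band lies in the middle of the sarcomere, the contractile unit of muscle, where myomesins cross-link the myosin filaments and the C-terminal end of titin is anchored. Titin spans from the Z-disc to the M-band, acts as a molecular spring and carries a kinase domain near the M-band, next to which MuRF1 binds. The MuRF proteins are RING-type ubiquitin ligases of the TRIM family. They tag muscle proteins for degradation by the proteasome and are best known from muscle atrophy.

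Levels are log2 RMA values (background-corrected, normalized between arrays and summarized per probe set), and a difference is always the value for Mef2d shRNA minus the value for lacZ shRNA on that log2 scale. Levels of different genes come from different probes and are not set against each other. Mef2d itself stood at 8.94 on the array labelled Mef2d shRNA, against 8.22 on that labelled lacZ shRNA. The probe set of the targeted gene was thus 1.64-fold higher where the label names the knockdown (difference 0.71). Among the 11614 genes past the level filter given below, 41 (0.353%), Mef2d included, had a difference at least as high. Whether the Mef2d probe set reports the knockdown, and whether the labels are the right way round, was not tested. The arrays are therefore named only by label, as the Mef2d-labelled and the lacZ-labelled array, and an exchange of labels would turn each sign given here.

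The Ttn, Mybpc3 and Myom3 promoters hold a match to the binding consensus of the MEF2 factors within 250 bases before the RefSeq gene start (build GRCr8). A stretch of 60 bases around the match is shown for Ttn and Mybpc3, with the consensus in capitals.

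Ttn (chr3:82332242-82332301, minus strand): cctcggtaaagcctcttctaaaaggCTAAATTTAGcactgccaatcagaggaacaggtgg

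Mybpc3 (chr3:97550927-97550986, plus strand): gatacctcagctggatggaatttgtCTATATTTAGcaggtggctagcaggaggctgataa

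Whole windows of 250 bases, which end at the base before the start, are shown for a pair of myomesin genes and a pair of MuRF genes. The differences within each pair had opposite signs. The Myom3 signal cannot be told from background, however, so nothing is drawn from its sign. Capitals mark a MEF2 consensus in Myom3, an M-CAT core in Trim54, and an M-CAT core followed by a TATA box in Trim63. The Myom1 window holds none of these and is in lower case throughout.

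Myom1 (chr9:118366896-118367145, plus strand): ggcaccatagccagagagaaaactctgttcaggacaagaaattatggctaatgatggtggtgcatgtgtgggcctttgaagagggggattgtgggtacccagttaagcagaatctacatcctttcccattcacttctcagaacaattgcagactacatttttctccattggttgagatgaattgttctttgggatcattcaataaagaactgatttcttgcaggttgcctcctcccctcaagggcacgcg

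Myom3 (chr5:153276056-153276305, plus strand): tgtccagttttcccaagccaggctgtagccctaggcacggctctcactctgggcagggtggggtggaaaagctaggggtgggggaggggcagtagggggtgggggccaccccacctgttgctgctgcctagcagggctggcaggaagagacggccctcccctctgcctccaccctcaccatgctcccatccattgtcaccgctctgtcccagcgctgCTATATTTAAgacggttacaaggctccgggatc

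Trim63 (chr5:151816986-151817235, plus strand): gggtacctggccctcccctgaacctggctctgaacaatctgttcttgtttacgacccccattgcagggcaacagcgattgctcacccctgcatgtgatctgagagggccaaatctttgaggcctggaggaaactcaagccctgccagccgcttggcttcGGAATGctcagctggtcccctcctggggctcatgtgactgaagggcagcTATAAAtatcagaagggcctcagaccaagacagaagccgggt

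Trim54 (chr6:30978476-30978725, minus strand): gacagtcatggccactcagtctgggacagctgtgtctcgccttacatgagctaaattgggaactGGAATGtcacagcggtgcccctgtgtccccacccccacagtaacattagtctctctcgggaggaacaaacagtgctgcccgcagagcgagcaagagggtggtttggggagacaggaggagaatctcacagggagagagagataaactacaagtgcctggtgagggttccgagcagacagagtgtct

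Sequences are from RefSeq, and 7 of the 9 genes had an entry, with Myom2 and Trim55 not in the table used. Both strands were searched, over 33469 windows of the same length. The MEF2 consensus lay at -166 to -157 in Ttn, at -109 to -100 in Mybpc3 and at -33 to -24 in Myom3, counted from the gene start, and was present in 2.96% of all windows. The M-CAT core CATTCC, the site of TEAD factors, was found in Trim63 (-91 to -86) and Trim54 (-186 to -181), in both on the minus strand, so that the printed letters read GGAATG, and in 12.1% of all windows. TATAAA was found in Trim63 at -42 to -37 and in 12.9% of all windows. The E-box CANNTG, the site of MyoD-type and other helix-loop-helix factors, was found in all 7 windows and in 65.5% of all windows. The CArG consensus of serum response factor was in none of the 7 and in 1.5% of all windows. No 2 matches of different motifs overlapped, although in Mybpc3 an E-box at -99 to -94 directly followed the MEF2 match. Of the 3 genes with a MEF2 match, Ttn had a positive difference (0.16) and Mybpc3 and Myom3 negative ones (-0.15 and -0.26). That of Myom3 comes from a signal that cannot be told from background. Those of Ttn and Mybpc3 were small: 35.2% and 37.5% of all genes past the level filter given below lay at least as far from 0. Nothing is drawn from these signs. A match describes the letters only and does not show that a factor binds there.

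**Figure D1:**
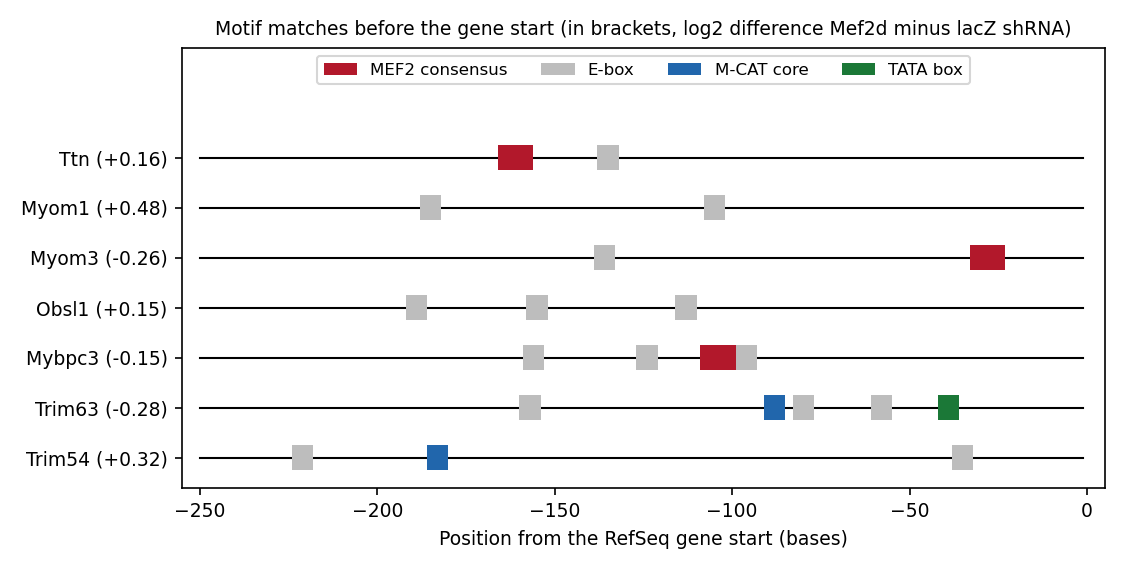
Positions of motif matches in the 250 bases before the RefSeq gene start for the 7 genes with an entry. The x axis gives the distance from the start in bases, each coloured block is a match on either strand, and the number beside each gene is its log2 difference, Mef2d shRNA minus lacZ shRNA. MEF2 matches stand in Ttn, Myom3 and Mybpc3, the first with a positive and the others with a negative difference. The Myom3 signal is near background, and the differences of Ttn and Mybpc3 are small.

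None of the 9 genes reached a 1.5-fold difference between the arrays in either direction. To leave out probe sets near background, genes with a mean level under the 30th percentile of all named genes (log2 4.85) were set aside. All 9 genes were above it, among 11614 genes in all. On the Mef2d-labelled array 98 of these (0.844%) were higher by 1.5-fold or more, and 62 (0.534%) were lower by as much. With shares this small, a count of 0 among 9 genes does not set the group apart. At a lower threshold of 1.3-fold, 2 of the 9 genes (Myom1 and Myom2) were higher, beside 3.51% of all genes, and none was lower, beside 2.47%. Of the 9 genes 6 had a positive difference and 3 a negative one. Their median was 0.16, beside -0.01 over all genes, of which 48.2% were above 0. Differences ran from -0.28 for Trim63 to 0.48 for Myom1.

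**Figure D2:**
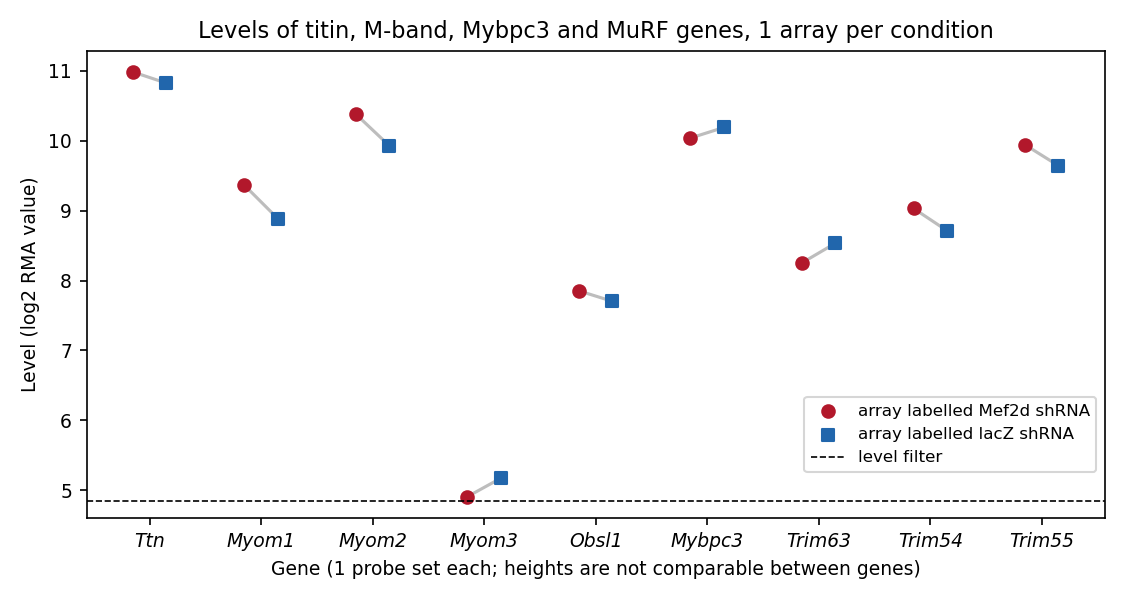
Level of each gene on the array labelled Mef2d shRNA (red circles, left of each pair) and on the lacZ-labelled array (blue squares), in log2 RMA values on the y axis, with 1 array per condition and no error bars. The left point is the higher of the pair for Ttn, Myom1, Myom2, Obsl1, Trim54 and Trim55, and the lower for Myom3, Mybpc3 and Trim63. Myom3 lies close to the dashed level filter of 4.85 on both arrays.

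Of the 3 myomesin genes, Myom1 and Myom2 were higher on the Mef2d-labelled array, and Myom3, at a level near background, was lower. Myom1, which encodes the myomesin present in all striated muscle, had a level of 9.36 on the Mef2d-labelled array and 8.88 on the lacZ-labelled array. This is a 1.39-fold higher level (difference 0.48). Over all 11614 genes, 210 (1.81%), Myom1 included, had a difference at least as high. Among 581 genes of similar level the scatter of the differences between the arrays, a scaled median absolute deviation, was 0.15, and Myom1 lay 3.05 such scatters above their centre. Such scatter holds real differences as well as measurement noise, and no replicate stands behind it.

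Myom2, the M-protein of fast muscle and adult heart, had a level of 10.38 on the Mef2d-labelled array and 9.93 on the lacZ-labelled array. It was 1.37-fold higher (difference 0.45), a value that 248 of all genes (2.14%) equalled or exceeded. It stood 3.19 scatters above the centre of its level bin, where 11 of 581 genes were at least as high. The differences of Myom1 and Myom2 were thus within 0.03 of each other on the log2 scale.

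Myom3, the third myomesin, known from slow and intermediate skeletal muscle fibres, had a level of 4.91 on the Mef2d-labelled array and 5.17 on the lacZ-labelled array. It was 1.20-fold lower (difference -0.26). Both levels lie close to the filter of 4.85, and RMA values carry no detection call, so this low signal cannot be told from background. Among the 581 genes of similar level 75 were at least as low, and Myom3 lay at -1.20 scatters from their centre. The Myom3 difference is therefore given as a value and not set against those of Myom1 and Myom2.

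Obsl1 encodes a protein that links titin to myomesin at the M-band and is also a subunit of the 3M ubiquitin ligase complex. Its level was 7.85 on the Mef2d-labelled array and 7.70 on the lacZ-labelled array (difference 0.15). This is within the scatter of 0.17 of genes of similar level, of which 124 of 581 were at least as high. Of the other 3M complex and CUL7 partner genes, 5 of 6 had a probe set and all 5 passed the level filter, with none past 1.5-fold in either direction. Of all genes 0.844% were at least 1.5-fold higher and 0.534% as much lower. The median of the 5 was -0.11, with 1 above 0 and 4 below, beside 48.2% of all genes above 0. Ccdc8, which encodes the 3M subunit that sits at the plasma membrane, had the lowest value (-0.33, with 6.14 on the Mef2d-labelled array and 6.47 on the lacZ-labelled array). Fbxw8, the F-box protein of the CUL7 ligase, followed at -0.15, and Cul9, a relative of the CUL7 scaffold, had the highest value at 0.20. Cul7 was not analysed here.

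Ttn, the titin gene, had a level of 10.98 on the Mef2d-labelled array and 10.83 on the lacZ-labelled array. The difference of 0.16, or 1.12-fold, was equalled or exceeded by 2022 of all genes (17.4%). Scatter is lowest among genes of the highest levels (0.11), and Ttn stood 1.38 scatters above their centre, with 69 of 581 genes at least as high. The titin transcript is spliced into forms of different spring length, which a single probe set does not separate. Rbm20, which encodes the splicing factor that acts on titin, had levels of 8.85 on the Mef2d-labelled array and 8.92 on the lacZ-labelled array (named after its value was seen).

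Mybpc3, cardiac myosin binding protein C, sits on the thick filament in stripes on either side of the M-band and regulates the myosin heads. Its level was 10.04 on the Mef2d-labelled array and 10.19 on the lacZ-labelled array. The difference of -0.15 lay at -1.02 scatters from the centre of its level bin, and 82 of 581 of them were at least as low. Ttn was thus 1.12-fold higher and Mybpc3 1.11-fold lower on the Mef2d-labelled array.

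Among other thick filament genes the myosin heavy chains Myh6 and Myh7 stood furthest apart. Of 13 listed genes 12 had a probe set and 10 passed the level filter. None was 1.5-fold higher or lower, beside 0.844% and 0.534% of all genes. At least 1.3-fold higher was 1 (Myh7) and at least 1.3-fold lower 1 (Myh6), beside 3.51% and 2.47% of all genes. Of the 10 genes 8 were above 0, beside 48.2% of all genes, and the median was 0.10. Myh7, the slow beta myosin heavy chain, had the highest value, with 11.65 on the Mef2d-labelled array and 11.27 on the lacZ-labelled array (difference 0.38), followed by Myh7b at 0.22. Myh6, the fast alpha heavy chain, had the lowest, with 8.56 on the Mef2d-labelled array and 9.02 on the lacZ-labelled array (difference -0.46). Mylk3, the cardiac myosin light chain kinase gene, had the other negative value, at -0.04.

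Among titin and M-band partners, 17 of 22 listed genes passed the level filter, of which 1 was at least 1.5-fold higher and none lower, beside 0.844% and 0.534% of all genes. That gene was Mypn, myopalladin, which ties titin and nebulin family proteins to the Z-disc, with levels of 7.89 on the Mef2d-labelled array and 7.20 on the lacZ-labelled array (1.60-fold higher). Speg, a kinase of striated muscle, had the next highest difference (0.43), from levels of 7.63 on the Mef2d-labelled array and 7.21 on the lacZ-labelled array. Its difference was close to those of Myom1 and Myom2. The lowest values were those of Ankrd1 (-0.16) and Ankrd2 (-0.13), which encode stretch-responsive ankyrin repeat proteins that bind titin. Ankrd2 had low levels, 5.07 on the Mef2d-labelled array and 5.20 on the lacZ-labelled array, close to the filter of 4.85. Nbr1 and Sqstm1, the autophagy receptors that link the titin kinase to MuRF signalling, were at -0.04 and -0.07, and both are named with their values already seen. The list had 10 genes above 0 and 7 below, beside 48.2% of all genes above 0, with a median of 0.09. Tcap and Ckmt2 were not analysed here.

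**Figure D3:**
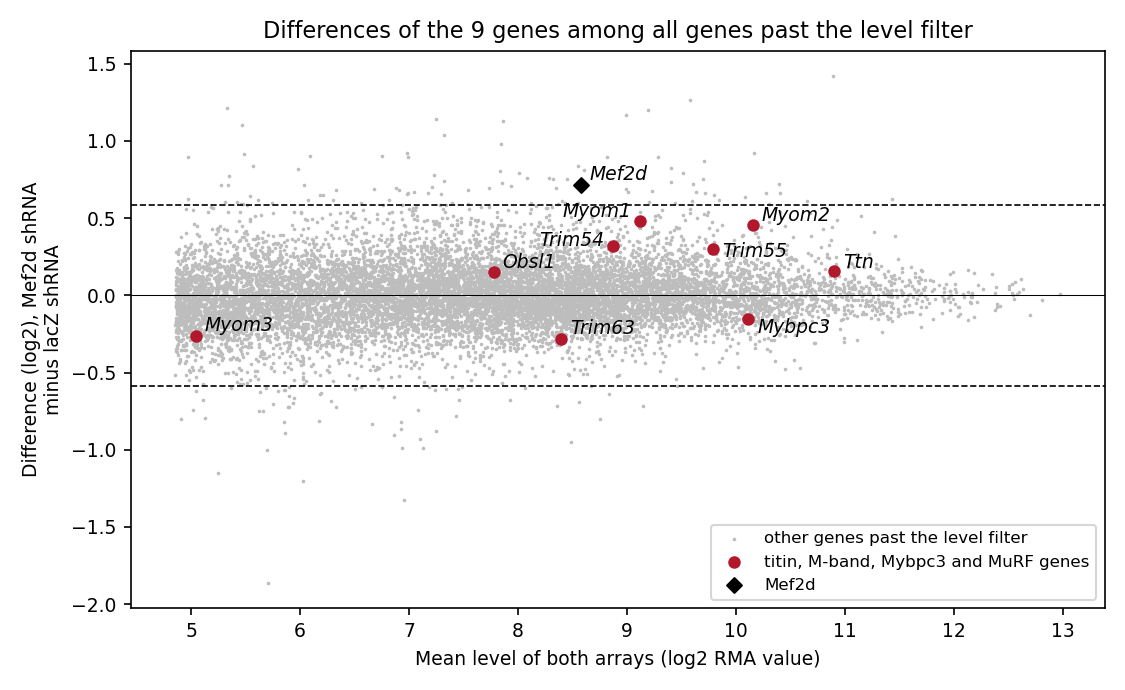
Difference between the arrays (y axis, log2, Mef2d shRNA minus lacZ shRNA) against the mean level of both arrays (x axis, log2 RMA value) for the 11614 genes past the level filter, with the 9 genes in red and Mef2d as a black diamond. All 9 red points lie between the dashed lines at 1.5-fold, with Myom1 (0.48) and Myom2 (0.45) nearest to the upper line.

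The MuRF genes went in different directions. Trim63, which encodes MuRF1, the family member best known from atrophy, had a level of 8.25 on the Mef2d-labelled array and 8.54 on the lacZ-labelled array. It was 1.22-fold lower (difference -0.28), and 679 of all genes (5.85%) were at least as low. Among genes of similar level 24 of 581 were at least as low, and Trim63 lay at -1.57 scatters from their centre.

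Trim54, which encodes the microtubule-associated MuRF3, had a level of 9.03 on the Mef2d-labelled array and 8.71 on the lacZ-labelled array. It was 1.25-fold higher (difference 0.32), 1.96 scatters above the centre of its level bin. Over all genes 631 (5.43%) were at least as high.

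Trim55, which encodes MuRF2, a protein that moves between sarcomere and nucleus, had a level of 9.94 on the Mef2d-labelled array and 9.64 on the lacZ-labelled array. It was 1.23-fold higher (difference 0.30), 2.02 scatters above the centre, and 714 of all genes (6.15%) were at least as high. The Trim54 and Trim55 differences were within 0.02 of each other. The Trim63 difference minus that of Trim54 was -0.60, and minus that of Trim55 -0.58, and these gaps were not tested. The 3 MuRF transcripts share related coding sequence, and how their probe sets tell them apart is not stated in the sources at hand.

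Trim63 was set beside other ubiquitin ligases of striated muscle and their regulators. Of 25 listed genes 24 had a probe set and 23 passed the level filter, with 2 at least 1.5-fold higher, none 1.5-fold lower, 15 above 0 and a median of 0.05. Over all genes 0.844% were as much higher, 0.534% as much lower and 48.2% above 0. Trim72, which encodes the membrane repair protein MG53, had a level of 8.24 on the Mef2d-labelled array and 7.44 on the lacZ-labelled array (1.75-fold higher). Fbxo40, an F-box gene of muscle, had 7.58 on the Mef2d-labelled array and 6.99 on the lacZ-labelled array. Its difference of 0.59 lies at the 1.5-fold threshold, and it fell under 1.5-fold after quantile normalization and after a loess correction, which left 1 gene past it. Fbxo32, or atrogin-1, the ligase usually named together with MuRF1 in atrophy, did not share the sign of Trim63, with 10.40 on the Mef2d-labelled array and 10.19 on the lacZ-labelled array (difference 0.21; named after its value was seen). Foxo1 and Foxo3, which encode transcription factors known to act on both of these ligases, were at 0.26 and 0.05, and both are named with their values already seen. The lowest values of the list were those of Nedd4l (-0.18) and of the glucocorticoid receptor gene Nr3c1 (-0.14).

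The COS motif, which follows the coiled coil in MuRF proteins, is shared by a few other TRIM and related genes. Of 9 listed relatives 7 had a probe set and 5 passed the level filter. None was past 1.5-fold either way, beside 0.844% of all genes higher and 0.534% lower. The median of the 5 was 0.23, and 4 were above 0, beside 48.2% of all genes. Mid2 (0.30) and Fsd2 (0.28) had the highest values and Trim67 (-0.23) the lowest. Trim67 had low levels, 5.13 on the Mef2d-labelled array and 5.36 on the lacZ-labelled array, not far above the filter of 4.85. Without the level filter the median of 7 relatives was 0.04.

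**Figure D4:**
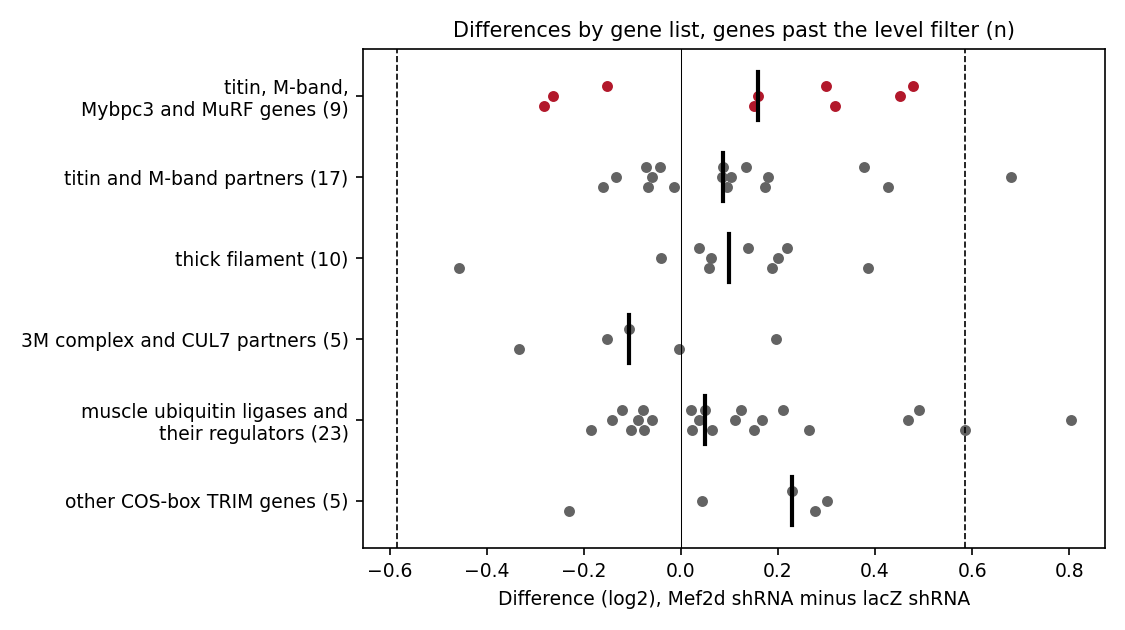
Differences (x axis, log2, Mef2d shRNA minus lacZ shRNA) of the 9 genes (red, top row) and of partner genes in 5 lists (grey), level filter applied, with the number of genes in brackets. Each point is a gene, black bars mark list medians, from -0.11 for the 3M complex list to 0.23 for the COS-box list, and dashed lines mark 1.5-fold.

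Marker genes were read to check the labelled cell type. All 10 cardiomyocyte markers passed the level filter, with levels of 7.49 to 12.79 on the Mef2d-labelled array and 7.31 to 12.82 on the lacZ-labelled array. Of 14 markers of skeletal myotubes, the cells named in the extraction protocol, 4 passed the filter (Mybpc2, Chrna1, Myf5 and Pax7). Myod1, Myog, Myh1, Myh2 and Myh4 lay below it. On the Mef2d-labelled and the lacZ-labelled array, Mybpc2 stood at 8.16 and 7.96 and Chrna1 at 5.40 and 5.35. Myf5 stood at 5.03 and 5.10 and Pax7 at 5.10 and 5.21, close to the filter of 4.85. As for Myom3, signal this low cannot be told from background. The marker sums below are on the linear scale, which mixes probes of different brightness, over every marker with a probe set, and are given as the Mef2d-labelled over the lacZ-labelled array. The values without a gene or without dim markers were added after seeing the data. The cardiomyocyte ratio was 1.06, and 0.993 without Casq2. The skeletal myotube ratio was 1.04, with 10 of the 14 summed markers below the filter, and 0.957 without Mybpc2. The fibroblast ratio was 0.970, with all 9 markers past the filter. Their levels ran from 6.44 to 12.35 on the Mef2d-labelled array and from 6.57 to 12.43 on the lacZ-labelled array. Fibroblast markers thus also gave strong signal on both arrays. Smooth muscle markers (5 of 6 past the filter) had a ratio of 0.909, and of 0.963 without Tagln. Macrophage markers (6 of 8 past the filter) had a ratio of 0.900, and of 1.00 without Lyz2. The endothelial ratio was 0.952 over 6 markers, 5 of them below the filter, and 1.07 for Tek, the marker past it. The erythroid ratio was 1.15 over 3 of 6 listed markers. These 3 had levels of 4.92 to 6.69 on the Mef2d-labelled array and 4.95 to 6.50 on the lacZ-labelled array. The lowest, Slc4a1, lay close to the filter. Of all genes 0.844% were at least 1.5-fold higher and 0.534% as much lower. No list of markers other than the cardiomyocyte list had a gene past 1.5-fold, and in that list the calsequestrin gene Casq2 was 2.67-fold higher. The part of such shifts in the differences of the 9 genes was not tested, and in RNA from a whole culture fewer cells of a type and less RNA per cell cannot be told apart.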

How the data were processed

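Total RNA of neonatal rat ventricular myocytes was hybridized to 2 one-colour Affymetrix arrays, 1 per condition, each a pool according to the series' design text. The deposited values are log2 RMA values, made by the authors with RMA and affy 1.36.1, per the submitters' processing notes; which tool did what, and how probe sets were defined, is not stated in the sources at hand. RMA compresses differences of dim probe sets. The number of arrays limits the precision.

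The 19239 probe sets were named through the platform annotation of the array. It gives 16592 probe sets 1 symbol each, some of them old, none several, and leaves 2647 unnamed here. The probe set names of all 9 genes carry a gene number, and the rat RefSeq table (GRCr8) gives that number the same symbol. Genome positions of the probe sets are not printed, since no source names the build behind them.

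Differences were taken from the deposited values (Python 3.11.15, pandas 2.3.3, statsmodels 0.14.6), without a test. Scatter was read in 20 bins of mean level, and the counting steps were tested on simulated data. The simulation used the same scatter at all levels, whereas the scatter of these data ran from 0.11 to 0.21 between bins. It checks the counting only and says nothing about the genes. The 9 genes and the partner lists were chosen with earlier results of these data known. The text names, in each partner list, at most the 2 highest genes above 0 and the 2 lowest below 0, marks others, and names some markers of other cell types to describe the cultures. With 2 arrays a likeness of patterns across samples is not defined. Alternatives were 3 other scalings, 2 other level filters, 2 other thresholds and list means.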

Additional observations from a re-analysis of the deposited data

How the results depend on the processing

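Under quantile normalization, median centring and loess correction all 9 genes kept the sign of their difference, and the largest move was 0.05 (Myom3, between -0.25 and -0.21 under these scalings). Myom1 lay between 0.47 and 0.49, Myom2 between 0.44 and 0.47, and Trim63 between -0.29 and -0.27. No gene of the 9 passed 1.5-fold under any scaling or level filter tried, and none passed 2-fold. The median of the 9 genes lay between 0.14 and 0.18 under the scalings. A level filter at the median of all named genes left out Myom3 and gave 0.23 over the remaining 8. The 98 higher and 62 lower genes became 408 and 287 at 1.3-fold, where 2 of the 9 genes were higher, and 9 and 5 at 2-fold. With the filter at the median 30 genes were lower. The COS-box list had a median of 0.0436 without a level filter. These moves come with the threshold or with the genes that the level filter lets in or leaves out. A move that came with the scaling was in the muscle ubiquitin ligase list. It had 2 genes at least 1.5-fold higher, but 1 after quantile normalization and 1 after loess correction. Of 143 values recomputed 134 stayed within a set limit. For single genes the limit was the scatter of genes of similar level, and for medians the median scatter of the level bins. For counts it was a change of at most 1.5 times, and counts that stayed at 0 are included. Such limits are wide beside small values. The muscle ubiquitin ligase list, with a median of 0.05 and a mean of 0.12, was taken as unmoved. Alternatives for several probe sets per gene were not run, since none of the 16592 named genes on this array had several. Leaving out a replicate was not possible either. No paired analysis was possible because there is a single array for each condition. Low signal limits Myom3.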
